A study of Mus musculus with 6 samples.

Results

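The genes described here are 10 enzymes, transporters and matrix proteins that set where and when bone mineral forms, Alpl, Phospho1, Enpp1, Ank, Slc20a1, Slc20a2, Mgp, Bglap, Bglap2 and Ifitm5. They were taken by symbol from a table of read counts for 43346 genes, and each of the 10 matched 1 row. RNA-seq had been run on limb bone of 1-day-old C57BL/6 mouse pups in 6 libraries. WT comprised 3 libraries, for which the labels name no further allele, and Hdac3 CKO comprised 3 libraries from pups with a conditional knockout of the histone deacetylase gene Hdac3 under Prx1. Prx1 drivers act in the mesenchyme of the limb bud, so blood cells and muscle fibres of these limbs are outside its usual range. Replicate numbers 1 to 3 name the libraries of a genotype in the order of their records and pair none across genotypes. Nothing in the labels ties a library to an animal or litter, so the spread behind each p-value is that of libraries and may be technical.

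Bone mineral is a calcium phosphate that grows on collagen when phosphate is plentiful and pyrophosphate, its main small inhibitor, is scarce. Enpp1 makes pyrophosphate outside the cell, Ank promotes its release or that of its precursor ATP, and the tissue-nonspecific alkaline phosphatase Alpl breaks it down to phosphate. Phospho1 frees phosphate inside matrix vesicles, and the sodium-phosphate cotransporters Slc20a1 and Slc20a2 carry phosphate into cells. Matrix Gla protein (Mgp) and osteocalcin (Bglap and Bglap2) bind calcium through glutamates carboxylated with vitamin K. Mgp blocks mineral in cartilage and artery walls, osteocalcin is a late product of osteoblasts, and Ifitm5 is a membrane protein of osteoblasts that is mutated in a form of brittle bone disease.

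Osteocalcin is encoded in the mouse by neighbouring copies on chromosome 3, of which Bglap (88383501 to 88384464, mm10) and Bglap2 (88377736 to 88378699, mm10) lie on the minus strand. Their coding sequences, read from the GENCODE M21 transcripts, are shown because their likeness limits how well reads can be assigned to either gene. Capitals mark the bases at which the copies differ.
Bglap: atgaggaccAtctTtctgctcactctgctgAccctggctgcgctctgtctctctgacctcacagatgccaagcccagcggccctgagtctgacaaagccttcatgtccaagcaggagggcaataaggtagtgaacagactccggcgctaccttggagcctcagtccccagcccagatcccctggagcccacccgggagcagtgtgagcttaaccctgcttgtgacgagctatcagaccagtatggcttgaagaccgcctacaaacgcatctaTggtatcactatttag
Bglap2: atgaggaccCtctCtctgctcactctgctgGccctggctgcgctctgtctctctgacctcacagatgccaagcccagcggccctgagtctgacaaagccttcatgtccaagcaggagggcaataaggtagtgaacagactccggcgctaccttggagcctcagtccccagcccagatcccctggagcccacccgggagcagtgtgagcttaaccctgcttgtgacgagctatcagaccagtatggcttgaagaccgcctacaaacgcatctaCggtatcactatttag
Both are 288 bases long and differ at 4 of them, and the substitutions from Bglap to Bglap2 are A10C, T14C, A31G and T273C, counted from the first base of the start codon. The copies are identical over a run of 241 bases. Of all 50-base stretches in the annotated transcripts, 56.6% of those of Bglap and 88.2% of those of Bglap2 also occur in another gene of the cluster. The same search found 0 shared stretches for Mgp, Alpl, Slc20a1 and Slc20a2, and under 1% for Enpp1 (0.116%) and Ank (0.450%). It found 25.3% for Ifitm5, shared with Gm45717, and 85.4% for Phospho1, shared with Zfp652. The search compared transcripts in their own direction only and misses genes on the opposite strand. Such exons cover 8.1% (9830144P21Rik) and 5.0% (Gm4430) of the exon bases of Slc20a1 and 1.5% (Smim19) of those of Slc20a2.

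Promoters were matched by symbol in a RefSeq table (GRCm38.p6) for 7 of the 10 genes, all but Mgp, Slc20a2 and Bglap2. The 250 bases before the start of Bglap (chr3:88384467-88384716, minus strand) and of Ifitm5 (chr7:140950244-140950493, minus strand) are shown because the levels of these osteoblast genes moved together over the libraries, as given further on. Capitals mark ACCACA, the core of the site bound by RUNX factors, and TATAAA, the TATA box, each searched on both strands (TGTGGT and TTTATA).
Bglap promoter: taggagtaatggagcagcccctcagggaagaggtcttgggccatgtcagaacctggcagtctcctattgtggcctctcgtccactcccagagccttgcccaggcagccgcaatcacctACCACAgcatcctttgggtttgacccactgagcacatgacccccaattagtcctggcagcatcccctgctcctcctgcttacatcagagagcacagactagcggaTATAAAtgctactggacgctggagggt
Ifitm5 promoter: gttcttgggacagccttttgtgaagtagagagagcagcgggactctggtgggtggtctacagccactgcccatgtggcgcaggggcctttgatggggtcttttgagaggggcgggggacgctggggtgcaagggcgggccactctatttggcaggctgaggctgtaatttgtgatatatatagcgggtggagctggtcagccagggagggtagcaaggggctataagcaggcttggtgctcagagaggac
The Bglap window held 1 ACCACA, beginning 132 bases before the start, and 1 TATAAA, beginning 27 bases before it. The Ifitm5 window held 0 of either. Only these exact letters were searched, so other forms of a TATA box would be missed. Among 32851 windows of the same length in the table, 14.05% held ACCACA and 12.4% held TATAAA. In the first listed window of the other matched genes, ACCACA occurred in Enpp1 and Slc20a1 and not in Alpl, Phospho1 or Ank. A match of these letters is a description of the window, not evidence of a bound site.

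Total counts per library ranged from 43389262 to 50927978. Hdac3 stood at 47.4 to 50.3 CPM (counts scaled to library size, normalised by TMM) in WT and 28.3 to 31.8 CPM in Hdac3 CKO, a fall with an edgeR adjusted p of 0.027. The bone collagen Col1a1 averaged 26627 CPM in WT, and skeletal muscle genes were also high, with Acta1 at 9212 CPM. Replicate 3 of either genotype stood apart by its cartilage genes. The summed level of 10 cartilage markers was 9062 CPM in WT replicate 3 and 16962 CPM in Hdac3 CKO replicate 3, against 1918 to 2625 CPM in the other 4 libraries. In bulk tissue, more cells of a type and more RNA per cell cannot be told apart.

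All 10 genes passed the filter on low counts. In the comparison of Hdac3 CKO with WT over 20210 genes, 1 of the 10 rose at an adjusted p under 0.05, which was Mgp, where 0.703% of all tested genes rose. None of the 10 fell in edgeR's test, with 0 also at an unadjusted p under 0.05 in that direction and 0 called in DESeq2, where 0.475% of all tested genes fell. At an unadjusted p under 0.05, 3 of the 10 were higher (Mgp, Ank and Slc20a2), where 7.79% of all tested genes were. With library totals in place of TMM, Mgp and Ank stayed under 0.05 and Slc20a2 (0.24, unadjusted edgeR p of 0.11) did not. Under that scaling Bglap (-0.43, unadjusted edgeR p of 0.049) and Bglap2 (-0.62, unadjusted edgeR p of 0.039) were under 0.05, both lower. That scaling moved the median log2 fold change of all tested genes to -0.18. The share of all genes lower at that p was not counted there. Bglap and Bglap2 are near-identical copies, so they do not count as separate results. For Mgp, Ank and Slc20a2 the CPM ranges of the genotypes were apart, all higher in Hdac3 CKO. Among all tested genes 11.5% did so in that direction and 22.5% in either. In RPKM the ranges of Slc20a2 overlapped. In either direction 1.18% of the tested genes were called. The share called was 4.29% in DESeq2, 1.03% with no filter on low counts, 1.22% with DESeq2 size factors, 0.881% with library totals, 0.777% in limma-voom, 0.475% and 0.693% in limma on log2 of RPKM plus 1 and plus 0.1, 0.787% with a cartilage covariate and 1.12% in the older edgeR fit. It was 0.112%, 0.17% and 0.51% without WT replicate 1, 2 or 3 and 0.843%, 0.784% and 0.223% without Hdac3 CKO replicate 1, 2 or 3. The median log2 fold change of the 10 was 0.15, beside 0.00098 over all tested genes, with 7 above 0 and 3 below.

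**Figure D1:**
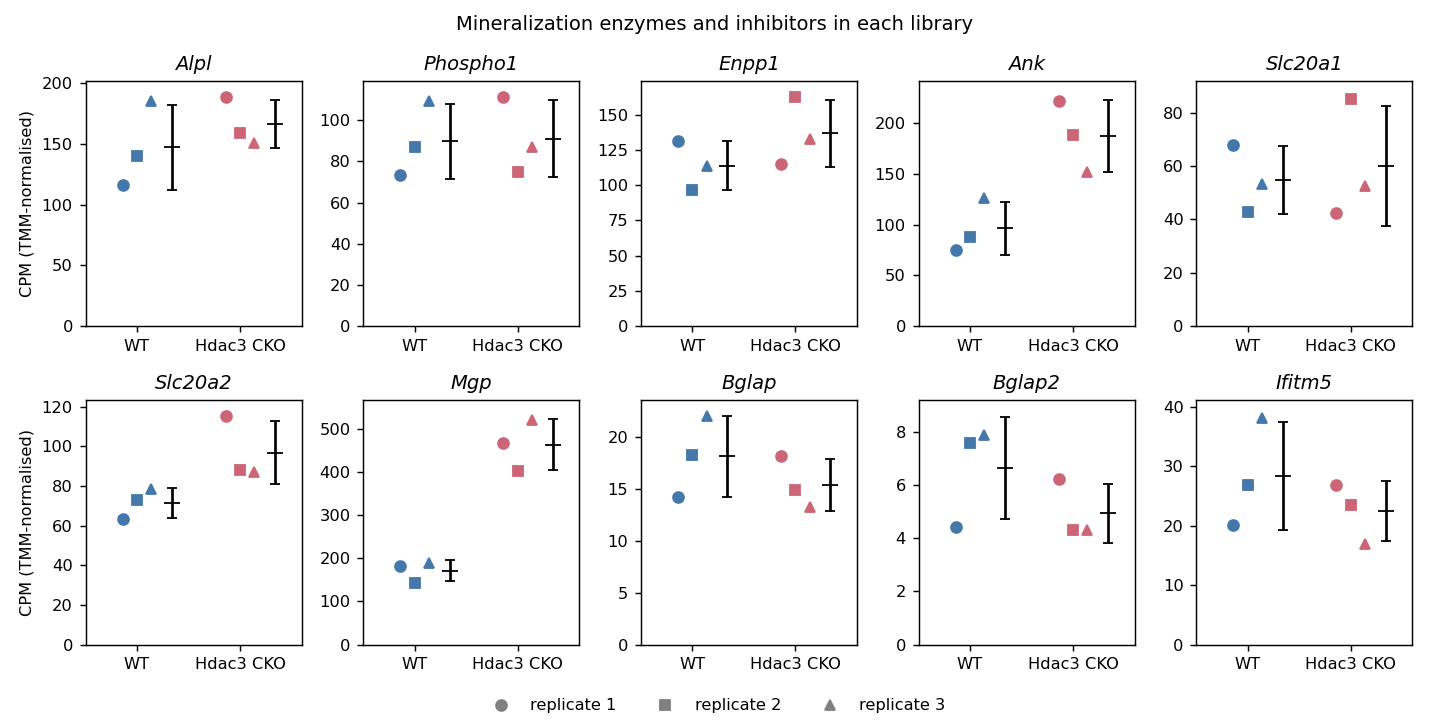
TMM-normalised CPM (y axis, from 0) of each of the 10 genes in 3 WT (blue) and 3 Hdac3 CKO (red) libraries, with the mean ± SD in black beside each group. Mgp, Ank and Slc20a2 are the genes whose groups do not overlap.

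Per unit length, Mgp was by far the most abundant of the 10. Levels between genes were compared in the deposited RPKM (reads scaled to gene length and library size), in which Mgp averaged 236 ± 24.7 (SD, n = 3) in WT. The other 9 ran in WT from Phospho1 (36.9 RPKM) through Ifitm5 (33.5), Alpl (30.4), Bglap (24.5), Ank (22.2), Slc20a2 (16.3), Bglap2 (11.8) and Enpp1 (9.12) to Slc20a1 (8.02). Each neighbouring pair in that order overlapped over the 3 WT libraries, except Mgp and Phospho1. In Hdac3 CKO, Mgp averaged 586 ± 68.4 RPKM (SD, n = 3) and moved from position 90 to position 47 among the tested genes. Ank moved from sixth to second of the 10, at 39.4 RPKM, though its range still overlapped that of Phospho1 (34.02 RPKM), whose counts carry the limit described below. Positions in RPKM also depend on the gene length used. The deposited lengths of Mgp (598 bases) and Slc20a2 (3649) are shorter than their exon bases in GENCODE M21 (1187 and 6216). With a longer length the RPKM of these genes would be lower.

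Mgp (ENSMUSG00000030218, chromosome 6, 136872436 to 136875805, mm10, protein-coding) is the calcium-binding inhibitor of the set. It stood at 182, 144 and 188 CPM in WT replicates 1, 2 and 3 and at 467, 403 and 520 CPM in Hdac3 CKO replicates 1, 2 and 3. Every Hdac3 CKO library lay above every WT library, and the spread within a genotype was small beside the gap. The mean was 171 ± 24.0 CPM (SD, n = 3) in WT and 464 ± 58.5 CPM (SD, n = 3) in Hdac3 CKO. Mgp rose 2.71-fold, or by 1.44 ± 0.16 (SE) on the log2 scale. Its Benjamini-Hochberg adjusted p in edgeR was 0.0080, and its p ranked 11 among the genes tested. It rose whichever single library was left out, with log2 fold changes of 1.33 to 1.53 and adjusted p of 0.0079 to 0.041. Without replicate 3 of both genotypes the log2 fold change was 1.42 ± 0.22 and the adjusted p 0.099. With 2 libraries a genotype, edgeR called 0 of 20270 genes, and 2309 of them (11.4%) had an unadjusted p under 0.05, among them Mgp at 2.1e-04.

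Mgp is known from chondrocytes and vascular smooth muscle, and its level was set beside the markers of these and other cells. In WT, Mgp stood at 182, 144 and 188 CPM where the summed cartilage markers were 2340, 2131 and 9062 CPM. In Hdac3 CKO it stood at 467, 403 and 520 CPM where they were 2625, 1918 and 16962 CPM. Within each genotype Mgp and the cartilage sum had the same rank order over the 3 libraries, and each Hdac3 CKO library held more Mgp than any WT library. A covariate was made from the mean over the 10 markers of log2 of CPM plus 1 in each library, not from the sum. With it, Mgp had a log2 fold change of 1.45 ± 0.16 and an adjusted p of 0.0080 in edgeR. Of 10 cartilage markers 0 rose or fell, with 9 above 0 and 1 below. Their mean log2 level was 6.56, 6.27 and 8.49 in WT replicates 1, 2 and 3. In Hdac3 CKO replicates 1, 2 and 3 it was 6.15, 5.65 and 9.13. Only Hdac3 CKO replicate 3 lay above the WT range, and Hdac3 CKO replicates 1 and 2 lay below it. The standard errors of the markers were mostly wide, with Col2a1 at 0.90 ± 1.58 and Acan at 0.92 ± 0.72 on the log2 scale. The absence of a call therefore says little about cartilage. Of 4 smooth muscle markers 0 rose or fell, and their summed level was 238 to 316 CPM in WT and 244 to 397 CPM in Hdac3 CKO. Other markers did move with the genotype. All 4 macrophage markers found in the table rose, with a summed level of 147 to 176 CPM in WT and 283 to 362 CPM in Hdac3 CKO. Of 5 neutrophil markers 4 fell, with a summed level of 77.6 to 227 CPM in WT and 14.9 to 24.0 CPM in Hdac3 CKO, and of 4 erythroid markers 1 fell, at 79.9 to 144 CPM and 44.2 to 69.4 CPM. None of these markers was at 0 in any library, and their part in the difference of Mgp was not tested. Of 7 osteoblast markers 0 rose or fell in edgeR's test. At an unadjusted p under 0.05 there were 5 of the 7, where 15% of all tested genes reached it. Ibsp (1.21 on the log2 scale), Col1a1 (0.75), Sparc (0.65) and Col1a2 (0.64) were higher, and the transcription factor gene Runx2 (-0.44) was lower. Sp7, also a transcription factor gene (0.38, unadjusted edgeR p of 0.060), and Spp1 (0.51, 0.095) were above 0 and did not reach it. The summed level of the list, mostly Col1a1 and Col1a2, was 50941 to 67476 CPM in WT and 78618 to 110902 CPM in Hdac3 CKO.

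**Figure D2:**
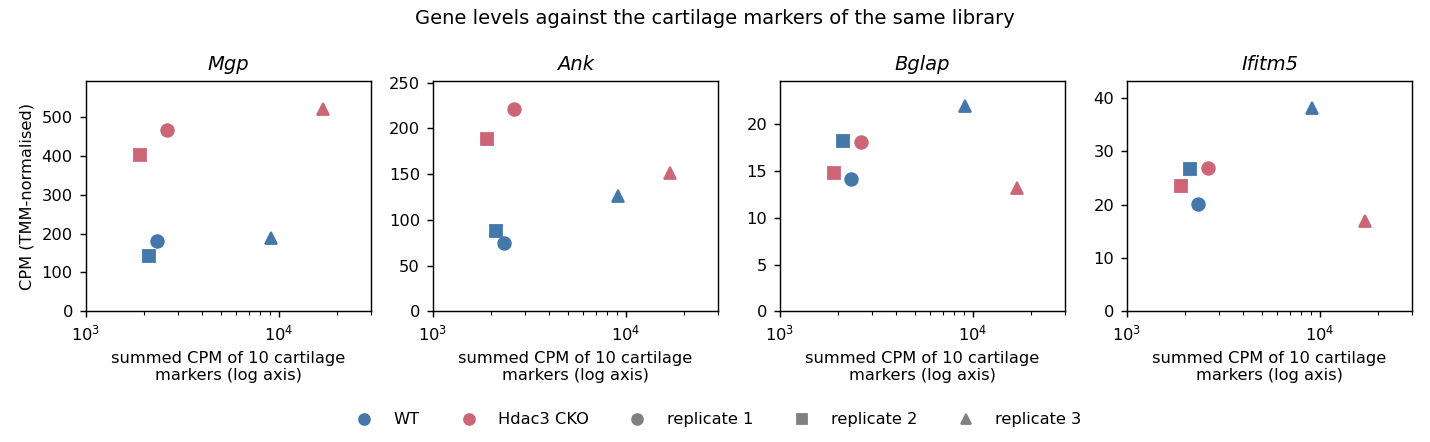
CPM of Mgp, Ank, Bglap and Ifitm5 (y axes, from 0) against the summed CPM of 10 cartilage markers in the same library (x axis, logarithmic), with WT in blue and Hdac3 CKO in red. The 3 Hdac3 CKO libraries hold 403 to 520 CPM of Mgp and the 3 WT libraries 144 to 188 CPM, and within each genotype the cartilage-rich replicate 3 has the highest Mgp.

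Among the genes of pyrophosphate, Ank (ENSMUSG00000022265, chromosome 15, 27466677 to 27594909, mm10, protein-coding), a membrane protein needed for pyrophosphate outside the cell, stood highest over WT. Its level was 74.4, 88.2 and 126 CPM in WT replicates 1, 2 and 3 and 222, 189 and 151 CPM in Hdac3 CKO replicates 1, 2 and 3. The groups did not overlap, and the nearest libraries were replicate 3 of each genotype. The mean was 96.1 ± 26.6 CPM (SD, n = 3) in WT and 187 ± 35.1 CPM (SD, n = 3) in Hdac3 CKO, a log2 fold change of 0.96 ± 0.21 (SE). Ank did not pass edgeR's test, with an adjusted p of 0.067. It passed in DESeq2 (adjusted p of 0.0014), with no filter on low counts (0.043) and without WT replicate 3 (0.045), and the adjusted p was as high as 0.25 without WT replicate 2. Without replicate 3 of both genotypes, Ank stood at 1.33 ± 0.21. Its edgeR adjusted p there was 0.099 (unadjusted 2.1e-04), the same as that of Mgp.

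Enpp1 (chromosome 10, 24637914 to 24712159), the enzyme that makes pyrophosphate from ATP, stood at 131, 96.5 and 113 CPM in WT and at 115, 162 and 133 CPM in Hdac3 CKO. The groups overlapped, with a log2 fold change of 0.27 ± 0.17 and an adjusted p of 0.48 in edgeR's test. Alpl (chromosome 4, 137741733 to 137796384), the enzyme that removes pyrophosphate, stood at 115.7, 140 and 185 CPM in WT and at 188, 159 and 151 CPM in Hdac3 CKO. WT replicate 3 lay inside the Hdac3 CKO range, and Alpl had a log2 fold change of 0.18 ± 0.18 and an adjusted p of 0.67. The ratio of Alpl to Enpp1 in RPKM, the enzyme that removes pyrophosphate over the one that makes it, was 2.24, 3.69 and 4.15 in WT and 4.16, 2.49 and 2.89 in Hdac3 CKO, with overlapping groups.

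Phospho1 (ENSMUSG00000050860, chromosome 11, 95824499 to 95832140, plus strand, mm10, protein-coding) encodes the phosphatase of matrix vesicles. It stood at 73.3, 87.0 and 109 CPM in WT and at 111, 74.7 and 87.1 CPM in Hdac3 CKO. The groups lay over each other, and the log2 fold change was 0.02 ± 0.19 with an edgeR adjusted p of 0.97. Of the exon bases of Phospho1 in GENCODE M21, 84.2% also lie in exons of Abi3 on the opposite strand, an actin regulator known from blood cells, and 89.6% in exons of Zfp652 on the same strand. The deposited counts of Abi3 were 97.8% to 101% of those of Phospho1 in each of the 6 libraries, for example 3899 for Phospho1 and 3871 for Abi3 in WT replicate 1, and 4600 and 4503 in Hdac3 CKO replicate 1. Zfp652 had 6666 to 9220 counts. Reads of Phospho1, Abi3 and the shared exons of Zfp652 cannot be told apart in this table, so the values given for Phospho1 are not of that gene alone.

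**Figure D3:**
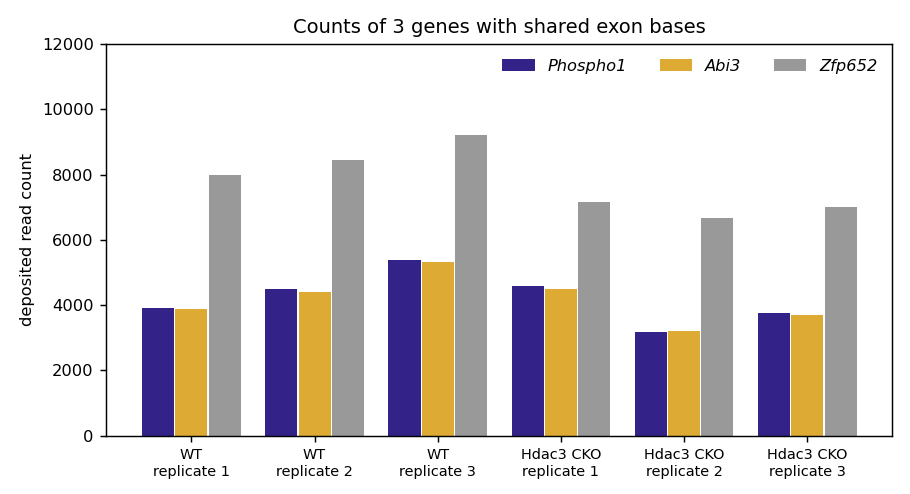
Deposited read counts (y axis, from 0) of Phospho1, Abi3 and Zfp652 in each of the 6 libraries. The bars of Phospho1 and Abi3 are of nearly the same height in every library, Abi3 being 97.8% to 101% of Phospho1, while Zfp652 stands at 6666 to 9220 counts.

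The phosphate cotransporters are related genes that are widely expressed. Slc20a2 (chromosome 8, 22476700 to 22569607) stood at 63.2, 72.8 and 78.3 CPM in WT and at 115, 88.2 and 87.1 CPM in Hdac3 CKO. The groups did not overlap in CPM, but in RPKM they did, with WT reaching 17.97 and Hdac3 CKO beginning at 17.80. Slc20a2 did not pass edgeR's test, with a log2 fold change of 0.44 ± 0.15 and an adjusted p of 0.22. Slc20a1 (chromosome 2, 129198764 to 129211616) stood at 68.0, 42.7 and 53.3 CPM in WT and at 42.2, 85.1 and 52.6 CPM in Hdac3 CKO. Its lowest and its highest library were both Hdac3 CKO, and its log2 fold change was 0.13 ± 0.26 with an adjusted p of 0.84. With library totals in place of TMM it was -0.03, and over all tested genes that scaling moved the median to -0.18.

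Bglap, Bglap2 and Ifitm5 were the genes of the set with lower means in Hdac3 CKO, and none of them passed the test. Bglap stood at 14.2, 18.2 and 21.97 CPM in WT and at 18.1, 14.9 and 13.2 CPM in Hdac3 CKO, a log2 fold change of -0.23 ± 0.19 with an edgeR adjusted p of 0.59. Bglap2 stood at 4.43, 7.58 and 7.89 CPM in WT and at 6.22, 4.30 and 4.30 CPM in Hdac3 CKO, a log2 fold change of -0.42 ± 0.26 with an adjusted p of 0.47. WT replicate 1 lay among the Hdac3 CKO values for both copies. Summed with Bglap3, osteocalcin had a log2 fold change of -0.28 ± 0.20 and an adjusted p of 0.53. The sum does not depend on how counted reads were divided among the near-identical copies. It neither recovers reads that were left out nor corrects reads counted for several copies.

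Ifitm5 (ENSMUSG00000025489, chromosome 7, 140948963 to 140950239, mm10, protein-coding) stood at 20.1, 26.8 and 38.2 CPM in WT and at 26.9, 23.4 and 16.9 CPM in Hdac3 CKO. The groups overlapped, with a log2 fold change of -0.34 ± 0.24 and an adjusted p of 0.53 in edgeR's test. The libraries with the highest and the lowest Ifitm5, WT replicate 3 and Hdac3 CKO replicate 3, also held the highest and the lowest Bglap. The ratio of Ifitm5 to Bglap in RPKM was 1.12 to 1.52 over the 6 libraries. That of Phospho1 to Alpl, with the limit given for Phospho1, was 0.93 to 1.26. A narrow ratio was therefore not particular to Ifitm5 and Bglap. The libraries with the highest and the lowest Ifitm5 and Bglap were the cartilage-rich ones. Without both of them the log2 fold change was 0.10 for Ifitm5 and 0.03 for Bglap.

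**Figure D4:**
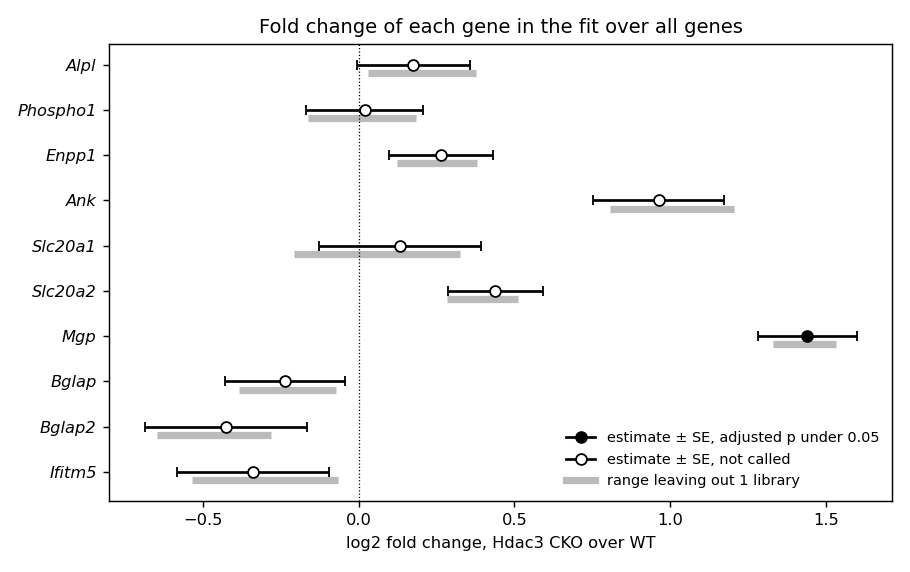
Log2 fold change of Hdac3 CKO over WT (x axis) with its SE for each of the 10 genes, filled where the adjusted p was under 0.05, and in grey the range when each library was left out in turn. Mgp is the filled point at 1.44, Ank stands at 0.96, and the ranges of Phospho1 and Slc20a1 cross 0.

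For each gene, the tested gene with the most similar profile was found by the root mean square difference of centred log2 CPM over the 6 libraries, among 13323 candidates. For Mgp these were Il4i1, an amino acid oxidase (0.17), the transcription factor Atf5 (0.18) and the tight junction claudin Cldn7 (0.19). They rose by 1.23, 1.59 and 2.28 on the log2 scale, beside 1.44 for Mgp. Distances were taken with 0.5 CPM added, which flattens the profile of a gene at a low level. The small distance of Cldn7 therefore does not mean a like fold change. The nearest gene to Phospho1 was Abi3 (0.016), which shares its exon bases. Ank was nearest to Slc13a3 (0.079), a dicarboxylate transporter gene, Slc20a2 to Scamp2 (0.023), Alpl to Tamm41 (0.065), Enpp1 to Nav2 (0.055) and Slc20a1 to Ugdh (0.064). Bglap was nearest to Olfml3 (0.065), Bglap2 to Tcf7 (0.10) and Ifitm5 to Snph (0.091). A small distance describes 6 libraries and says nothing of shared control.

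Of 32 further genes of mineral, vitamin K and vesicle biology, 28 passed the filter on low counts, and 0 rose and 0 fell in edgeR's test. At an unadjusted p under 0.05 there were 9 of the 28, where 15% of all tested genes reached it. DESeq2 called 2, Smpd3 higher and Ifitm6 lower, where it called 4.29% of all tested genes. The median log2 fold change of the 28 was 0.05, with 15 above 0 and 13 below. With the cartilage covariate 1 rose and 2 fell, where 0.787% of all tested genes were called. With no filter on low counts 1 rose and 1 fell (1.03% called over all genes). Without WT replicate 3, 1 rose (0.51%). In limma on log2 of RPKM plus 0.1 (0.693%) and in the older edgeR fit (1.12%), 1 fell. In the list of other phosphate and pyrophosphate genes, 11 of 14 were tested. Smpd3, the sphingomyelinase of matrix vesicles whose loss impairs mineral, averaged 127 CPM in WT and 240 CPM in Hdac3 CKO, at 0.92 ± 0.19 on the log2 scale and an adjusted p of 0.057. Enpp2, the lysophospholipase D autotaxin, averaged 26.3 and 17.1 CPM, at -0.62 ± 0.19 and an adjusted p of 0.17.

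Among 7 genes of the vitamin K cycle and other Gla proteins, 0 rose or fell in edgeR's test. Where 15% of all tested genes had an unadjusted p under 0.05, 2 of the 7 did. These were Vkorc1, the enzyme that recycles vitamin K (0.41 ± 0.14, adjusted p of 0.21), and Gas6, a Gla protein that binds TAM receptors (0.44 ± 0.15, adjusted p of 0.23). Ggcx, the carboxylase that modifies Mgp and osteocalcin, was at 0.17. All 3 annexins of matrix vesicles were above 0, where 50.1% of all tested genes were. Anxa5 stood at 0.36 ± 0.14 (adjusted p of 0.25) and Anxa2 at 0.38 ± 0.15 (adjusted p of 0.27). Of 6 tested genes among the other Ifitm genes and Fkbp11, Ifitm6 stood at -2.64 ± 0.57 (adjusted p of 0.063) and Ifitm2 at 0.39 ± 0.14 (adjusted p of 0.22). Ahsg, a mineral inhibitor of serum made by liver, was at the edge of detection, with 0.258 CPM in WT and 1.28 CPM in Hdac3 CKO and an adjusted p of 0.38. Its lowest library was a WT library at 0.

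**Figure D5:**
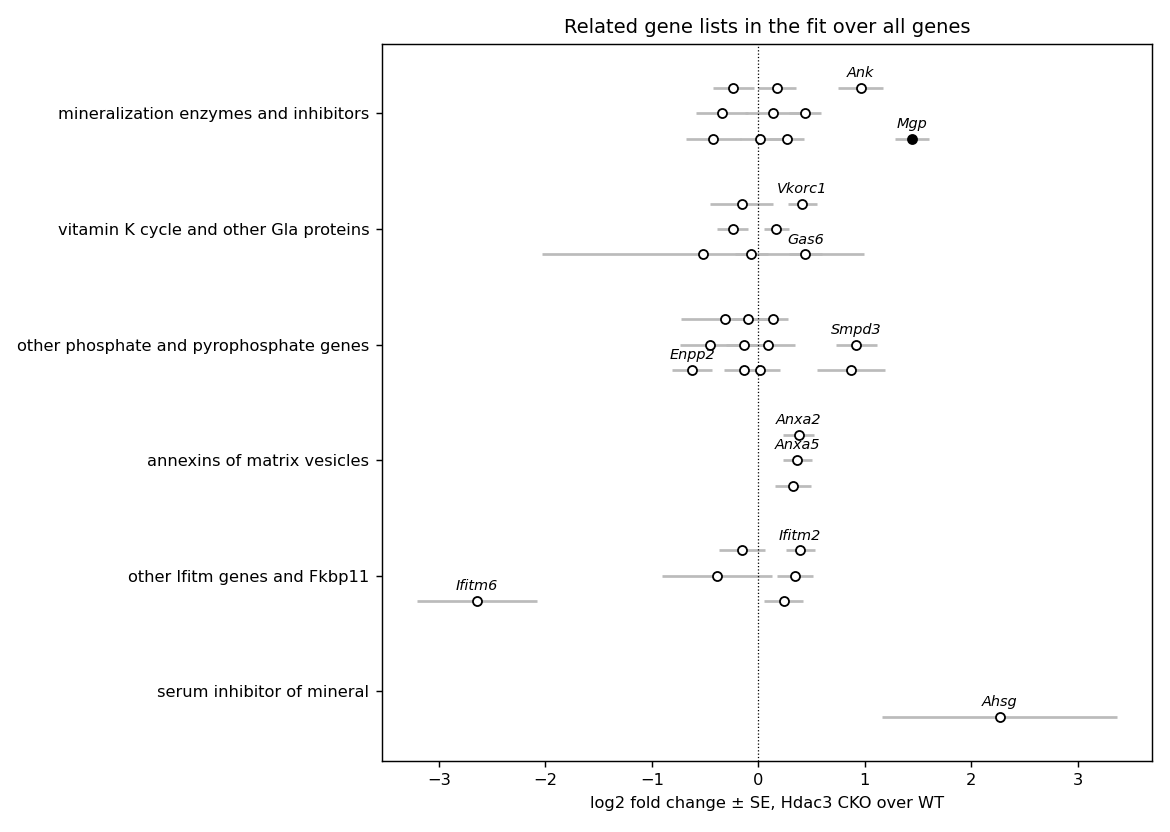
Log2 fold change ± SE of Hdac3 CKO over WT (x axis) for the tested genes of each list, filled where the adjusted p was under 0.05, with the 2 smallest p of each list named. Mgp at 1.44 is the filled point, and Ank at 0.96 and Smpd3 at 0.92 are open.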

How the data were processed

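RNA-seq libraries from limb bone, 3 WT and 3 Hdac3 CKO, were compared. Read counts for each gene, as whole numbers, and RPKM were deposited by the authors. The tools in the submitters' processing notes are TopHat2 2.1.0, bcl2fastq 1.8.4, featureCounts and Subread, with mm10. How strand, overlapping genes and reads with several matches were handled is not given in the sources used here, so counts of overlapping genes or near-identical copies may be shared or missing. Of the gene identifiers, 98.0% were found in GENCODE M21.

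Counts of 43389262 to 50927978 per library were filtered with edgeR 4.0.16 (R 4.3.3), which left 20210 genes, and normalised by TMM. The genotypes were compared with the quasi-likelihood test with robust moderation, no covariate and 4 residual degrees of freedom. Benjamini-Hochberg adjustment covered all tested genes. A gene rose or fell at an adjusted p under 0.05. Standard errors were the fold change over the square root of the test's F. The procedure was tested on simulated data.

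Alternatives were other scaling, no filter, DESeq2 1.42.0, limma 3.58.1 with voom or on log2 of the deposited RPKM plus 1 or 0.1, a cartilage covariate, leaving out libraries and, chosen after seeing the data, the older quasi-likelihood fit of edgeR. The genes and lists were chosen with earlier results of these data known. All 10 genes were named. Of each further list other than the cell markers, the 2 with the smallest p and any that passed in the main fit were named. Ggcx was named, and the pair of Phospho1 and Abi3 and the ratios of levels were looked at, after their values were seen. Most similar profiles were sought among genes with a mean count of at least 50, with 0.5 CPM added, leaving out Gm and Rik symbols and genes on X and Y.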

Additional observations from a re-analysis of the deposited data

How the results depend on the processing

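Mgp rose under each alternative run except the one without replicate 3 of both genotypes, and none of the 10 genes fell under any. The number that rose was 2, Mgp and Ank, with no filter on low counts and in DESeq2, 1 to 2 when 1 library was left out, and 0 without both cartilage-rich libraries. The number of genes called over the table was 868 in DESeq2, 159 with the cartilage covariate, 157 in limma-voom, 96 and 140 in limma on log2 of RPKM plus 1 and plus 0.1, 0 without both cartilage-rich libraries (2309 at an unadjusted p under 0.05), and 23 to 175 when 1 library was left out, against 238. With library totals 32.6% of the called genes were higher, against 59.7% with TMM, and Alpl stood at -0.016, Phospho1 at -0.18 and Slc20a1 at -0.030, with Bglap at -0.43, Bglap2 at -0.62 and Ifitm5 at -0.53. In limma on log2 RPKM, Phospho1 stood at -0.11 with either pseudocount and Slc20a1 at -0.023 and -0.030. Without both cartilage-rich libraries Bglap stood at 0.025 and Ifitm5 at 0.10. With 1 library left out, Phospho1 ran from -0.16 to 0.18 and Slc20a1 from -0.21 to 0.32, while Bglap ran from -0.38 to -0.07, Bglap2 from -0.65 to -0.28 and Ifitm5 from -0.53 to -0.06. The sign changes are of genes that did not pass the test, and their cause was not tested. No paired analysis was possible because the labels give no replicate numbers, and those used here only name libraries in the order of their records. Bglap2, at 4.30 to 7.89 CPM, is the least deeply counted of the 10.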
